A study of Mus musculus with 2 samples.

Results

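Complement is a set of plasma and membrane proteins that marks microbes and dying cells. All activation routes converge on the cleavage of C3, and the small fragments C3a and C5a released downstream act on receptors of myeloid cells. Macrophages and neutrophils make several complement proteins themselves. Described here are 7 genes of that system outside the C1q genes, taken by symbol from the 31053 genes in the deposited matrices. They are the central protein C3, the C3a receptor C3ar1, the C5a receptor C5ar1, the alternative pathway protease factor B (Cfb), its stabiliser properdin (Cfp), the classical and lectin pathway protease C2, and the C1 inhibitor Serping1. The genes were listed by symbol and not by a cut on measured values, but earlier results of these data were known.

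The genes were measured by droplet single-cell RNA sequencing in 2 libraries of bone marrow macrophage cultures from wild-type 129Sv mice. Marrow cells were grown in medium with 10% serum and 50 ng/ml M-CSF, which steers marrow cells to a macrophage fate. On day 7, the THP library's cells received 1 µg/ml of Tamm-Horsfall protein, a kidney protein also called uromodulin, in a truncated form that does not polymerize. The vehicle library's cells received 5% dextrose, and both were harvested after 18 h. With 1 library a group, differences below lack a replicate, and effects of treatment, dish and library preparation cannot be told apart. Values given as a pair are in the order THP, vehicle. The labels do not give the number of animals. No p-value was computed, and every interval below is a 95% interval that covers counting error only.

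After filtering, 12123 THP cells with a median of 16113 UMIs (unique molecules) and 10978 vehicle cells with a median of 17223 remained, and 38 cell barcodes occurred in both. Cells were placed in gates by marker genes, none of which is a complement gene. A cell met a gate when more than 50% of its type's markers had at least 2 UMIs, and a myeloid gate took only cells that met no other gate. At least 5 of 8 macrophage markers were met by 44.1% of THP cells and 34.7% of vehicle cells, so a large part of both cultures fell short of that count. Cells below it could still carry some of the markers. With at least 2 UMIs, single markers were found in 3.89% (Mertk) to 64.0% (Csf1r) of THP cells. In vehicle cells the same markers were found in 6.77% and 55.8%. The exclusive macrophage gate held 4013 THP cells (33.1%) and 2604 vehicle cells (23.7%). Gates for mature neutrophils (723 and 919 cells), immature neutrophils (447 and 579), myeloid progenitors (1006 and 1171), monocytes (410 and 575), MHC class II-high cells (683 and 693) and stromal cells (79 and 69) were compared beside it. The remaining cells met several gates, none, or a gate too small to compare. The stromal gate was not exclusive and took every cell that met it. Of its cells, 48 with THP and 40 with vehicle met no other gate, and the rest also met another gate.

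C3ar1 lies on chr6:122847138-122856161, C5ar1 on chr7:16246743-16259540, Cfp on chrX:20925454-20931555 and Serping1 on chr2:84765387-84775444 (GRCm38, GENCODE M21). On chromosome 17 lie C3 (chr17:57203970-57228136), Cfb (chr17:34856374-34862518) and C2 (chr17:34862604-34898265), and all 7 genes are on the minus strand. Cfb and C2 are neighbours in the MHC class III region. The annotated read-through gene Gm20547 shares 79.5% of the exon bases of Cfb and 42.8% of those of C2 on the same strand, and Gm20547 was listed with 0 UMIs in both libraries. The Cfb and C2 counts are therefore uncertain, since molecules shared with it could have been dropped or assigned elsewhere during counting.

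The 250 bases before the RefSeq start were read for C3ar1, C5ar1, C3 and Cfp, the 4 genes with an entry (GRCm38.p6). The windows of C3ar1 and C3 are shown because the transcripts of this receptor and of its ligand's precursor lay in opposite cell gates, as the values below describe. Capitals mark the single match to any motif searched.
C3ar1, chr6:122856158-122856407, minus strand: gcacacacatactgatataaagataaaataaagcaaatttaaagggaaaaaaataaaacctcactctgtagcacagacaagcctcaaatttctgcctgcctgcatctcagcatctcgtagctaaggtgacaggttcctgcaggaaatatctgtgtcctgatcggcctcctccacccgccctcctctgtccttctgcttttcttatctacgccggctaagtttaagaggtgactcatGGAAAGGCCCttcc
C3, chr17:57228137-57228386, minus strand: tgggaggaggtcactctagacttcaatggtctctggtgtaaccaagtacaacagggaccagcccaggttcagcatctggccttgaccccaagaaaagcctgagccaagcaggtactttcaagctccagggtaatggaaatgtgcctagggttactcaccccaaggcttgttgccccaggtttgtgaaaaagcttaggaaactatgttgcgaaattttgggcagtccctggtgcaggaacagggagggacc
The motifs were searched on both strands. The capital letters in C3ar1, 14 to 5 bases before the start, match a degenerate NF-kB motif on the opposite strand, which 1.41% of 32851 promoter windows of this length hold. The exact form of that NF-kB motif (0.14% of windows), the interferon-stimulated response element (2.98%) and the interferon-gamma activated sequence TTCNNNGAA (7.02%) had no match in these 4 windows. A match is a description of letters and not of a bound site.

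Over all kept cells both anaphylatoxin receptors were higher in the THP library. C3ar1 stood at 266 CPM (counts per 1000000 UMIs, interval 264 to 268) with THP against 150 CPM (148 to 151) with vehicle, a ratio of 1.78 (1.75 to 1.80). C5ar1 stood at 200 CPM (198 to 202) and 116 CPM (115 to 118), a ratio of 1.72 (1.69 to 1.75). Of the 8012 genes with at least 10 CPM in a library, 98.7% had a lower ratio than C3ar1 and 98.5% a lower ratio than C5ar1. Cfp was closer between the libraries, at 529 CPM against 448 CPM, a ratio of 1.18 (1.17 to 1.19). C3 was lower in the THP library, at 101 CPM against 151 CPM, a ratio of 0.67 (0.66 to 0.68).

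None of these 4 genes reached a 2-fold difference on the log2 scale of CPM + 1, against a background of 0.911% of the 8012 genes higher and 2.97% lower. At 1.5-fold, C3ar1 and C5ar1 were higher, against a background of 2.33% of genes, and no member was lower, against 17.3%. All 8012 genes together had a median log2 ratio of -0.18, so most were slightly lower in the THP library on this scale. Scaling by TMM, which assumes that most genes are level, raised the log2 ratios by a median of 0.28 and took both receptors past 2-fold. By that rule 138 of all genes were higher and 69 lower, in place of 73 and 238. C3 remained lower under TMM scaling, at a log2 ratio of -0.29 in place of -0.57.

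The other 3 genes were near the limit of detection. Cfb was counted 32 times with THP and 15 times with vehicle, in 0.256% and 0.137% of cells. C2 was counted 240 and 263 times, a ratio of 0.84 (0.70 to 1.01). Serping1 was counted 533 and 192 times, a ratio of 2.56 (2.17 to 3.04), and nearly all of these UMIs came from the few stromal cells described further on.

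**Figure D1:**
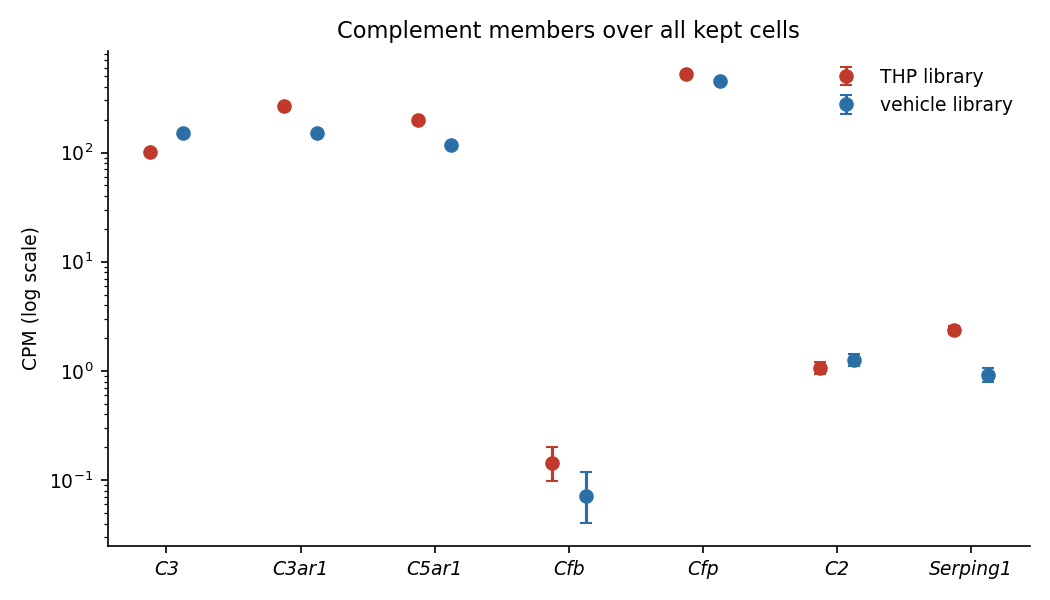
Level of the 7 genes over all kept cells, in CPM on a log axis, with the THP library in red and the vehicle library in blue. Bars are 95% counting intervals, hidden by the points where narrow; C3ar1 (266 against 150 CPM) and C5ar1 (200 against 116 CPM) are higher in the THP library and C3 (101 against 151 CPM) is lower.

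Per UMI, C3 was highest in the neutrophil, progenitor and monocyte gates. The progenitor gate gave 17.9% of all C3 UMIs with THP and 23.8% with vehicle, the macrophage gate 13.7% and 4.6%, and cells that met several gates 35.4% and 39.9%. These shares also depend on gate size. Of 224825484 and 207662132 UMIs of all genes, the progenitor gate held 14327469 and 19954698. The macrophage gate held 99584940 and 66480655, and cells that met several gates 64766701 and 75975113. The level of C3 was highest in immature neutrophils, at 652 CPM (623 to 682) with THP and 848 CPM (819.5 to 877) with vehicle. Mature neutrophils followed with 383 and 433 CPM, myeloid progenitors with 284 and 374 CPM, and monocytes with 228 and 271 CPM. MHC class II-high cells held 40.0 and 32.5 CPM, and macrophages 31.3 CPM (30.3 to 32.5) and 21.7 CPM (20.6 to 22.9). In the stromal gate C3 stood at 40.6 CPM (32.5 to 50.0) and 15.6 CPM (11.4 to 20.7), which in the THP library could not be told apart from the MHC class II-high cells.

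The library difference of C3 ran in opposite directions among the gates. It was higher in the THP library in macrophages, by a ratio of 1.44 (1.36 to 1.54), in MHC class II-high cells (1.23, 1.06 to 1.43) and in stromal-gated cells (2.61, 1.81 to 3.80). It was lower in myeloid progenitors (0.76, 0.73 to 0.79), immature neutrophils (0.77, 0.73 to 0.81), monocytes (0.84, 0.79 to 0.89) and mature neutrophils (0.88, 0.81 to 0.96). The difference between gates was not tested, since each gate has 1 library a group. In the stromal gate, progenitor and neutrophil markers summed higher in the THP library as well, and monocyte markers summed lower. The progenitor markers summed to 422 and 72.5 CPM there (5 of 5 higher), those of immature neutrophils to 214 and 77.5 CPM (4 of 6 higher) and those of mature neutrophils to 1946 and 987 CPM (5 of 7 higher). In MHC class II-high cells these sums were 78.8 and 113 CPM (0 of 5 higher), 142 and 124 CPM (3 of 6 higher), and 1364 and 1192 CPM (4 of 7 higher). The monocyte markers summed to 1146 and 1819 CPM in the stromal gate, although 4 of 6 were higher. In MHC class II-high cells they summed to 604 and 839 CPM (2 of 6 higher). The part of these marker genes in the C3 differences was not tested.

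The 2 directions did not have the same standing among other genes. In macrophages 97.3% of tested genes had a lower ratio than C3. In the 4 gates where C3 was lower, between 33.6% and 48.4% of tested genes had a still lower ratio, so C3 lay near the middle of all genes there. Subtracting the trend of the ratios on transcript length took the mature neutrophil ratio to 1.11 and the monocyte ratio to 1.00, and TMM scaling gave 0.88 to 0.98 in these 4 gates. In macrophages the ratio was 1.73 under TMM scaling and 1.68 with the length trend subtracted.

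The mix of cells differed between the libraries as well. When both libraries were given the same mix of gate combinations, the log2 ratio of C3 over all cells was -0.17, against -0.57 as measured. The median of -0.18 over all tested genes is for the libraries as measured and not for the same mix. In macrophages the 5 progenitor markers summed to 56.7 CPM with THP and 96.2 CPM with vehicle, with 5 of 5 lower. The immature neutrophil markers summed to 67.2 and 96.3 CPM (5 of 6 lower) and the mature neutrophil markers to 894 and 1094 CPM (5 of 7 lower). Monocyte markers summed to 195 and 287 CPM there (6 of 6 lower). The part of these marker genes in the macrophage C3 value was not tested. A few macrophages, 414 THP and 66 vehicle cells, had no UMI of any immature neutrophil or progenitor marker. In them C3 stood at 27.9 and 17.6 CPM, a ratio of 1.59 (1.00 to 2.65). Mature neutrophil and monocyte markers were not screened in this selection.

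At an equal depth of 5000 UMIs per cell, 14.0% of THP macrophages and 9.97% of vehicle macrophages had a C3 UMI. The same share was 92.1% and 97.8% in immature neutrophils, of which only 278 of 447 and 411 of 579 cells reached that depth. At full depth, where macrophages had medians of 21597 and 23189 UMIs, 43.2% and 31.3% of them had a C3 UMI.

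The C3a receptor had its highest level in macrophages. C3ar1 stood at 385 CPM (381 to 389) there with THP and at 288 CPM (284 to 292) with vehicle, and the macrophage gate gave 64.2% and 61.6% of all C3ar1 UMIs. In the THP library it was followed by MHC class II-high cells at 118 CPM and stromal-gated cells at 107 CPM, whose intervals overlap. Mature neutrophils held 83.9 CPM, monocytes 32.2 CPM, and immature neutrophils (11.9 CPM) and progenitors (11.03 CPM) could not be told apart. In the vehicle library, stromal-gated cells held 57.3 CPM, MHC class II-high cells 55.5 CPM, mature neutrophils 28.1 CPM, monocytes 15.0 CPM, progenitors 6.06 CPM and immature neutrophils 4.20 CPM.

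The C5a receptor was high in macrophages and in mature neutrophils. C5ar1 stood at 281 CPM (278 to 284) and 209 CPM (205 to 212) in macrophages and at 237 CPM (220 to 256) and 172 CPM (157 to 189) in mature neutrophils. Immature neutrophils held 85.1 and 46.2 CPM, and stromal-gated cells 89.5 and 37.4 CPM. MHC class II-high cells (55.3 and 30.5 CPM) and monocytes (48.1 and 26.2 CPM) had overlapping intervals in each library, and progenitors were lowest at 14.1 and 8.37 CPM.

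**Figure D2:**
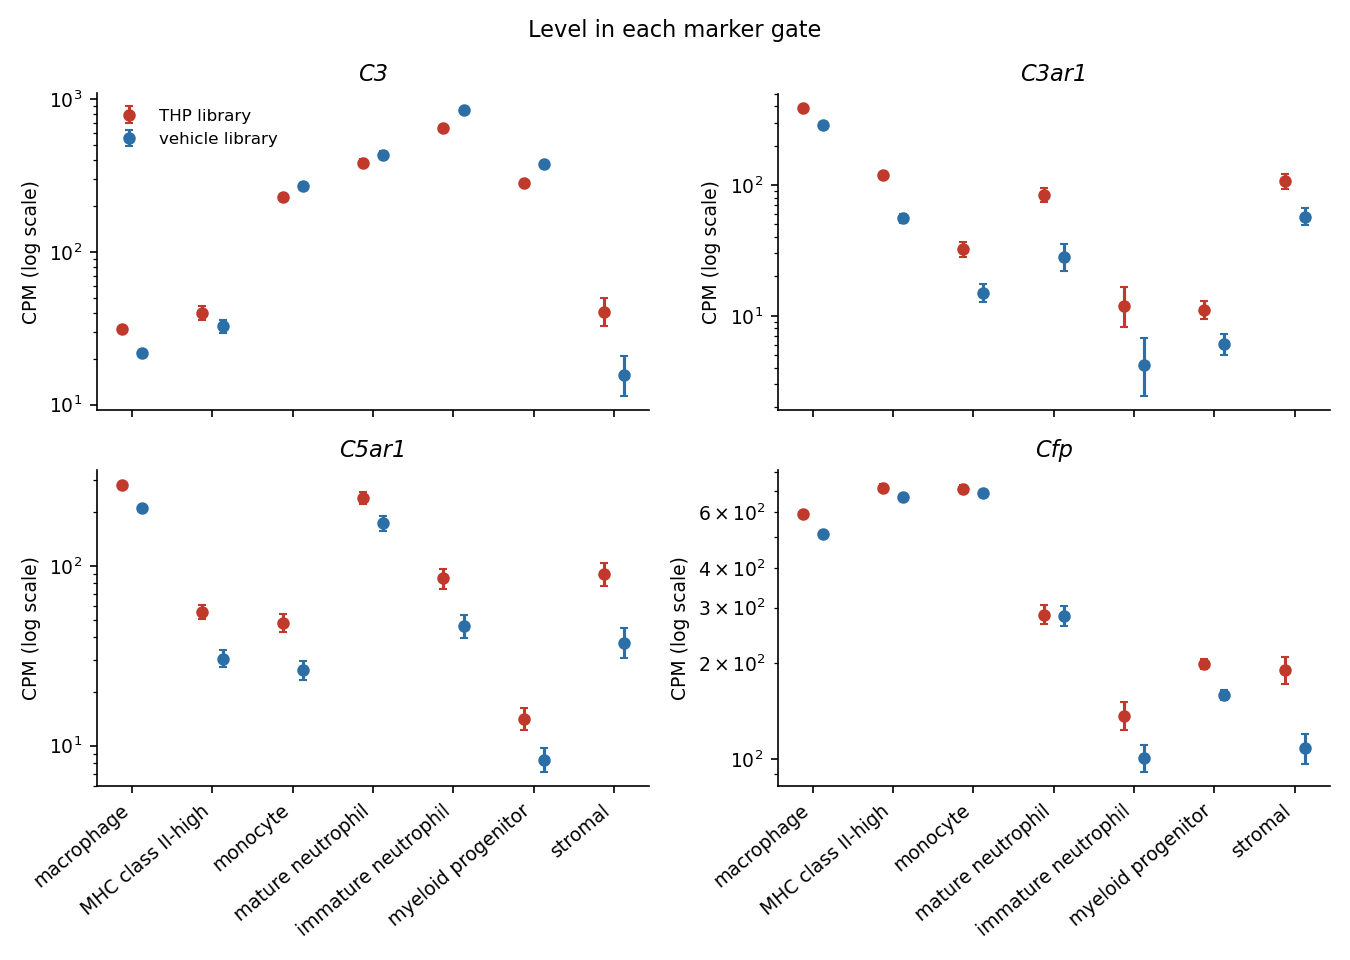
Level of C3, C3ar1, C5ar1 and Cfp in 7 marker gates, in CPM on log axes that differ between panels, with THP in red, vehicle in blue and 95% counting intervals. C3 is highest in immature neutrophils (652 and 848 CPM), C3ar1 and C5ar1 in macrophages (385 and 288 CPM, 281 and 209 CPM), and Cfp in MHC class II-high cells and monocytes.

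Both receptors were higher in the THP library in 7 of 7 gates, each with an interval above 1. For C3ar1 the ratio was 1.34 (1.32 to 1.36) in macrophages, 1.82 in progenitors, 1.86 in stromal-gated cells, 2.13 in MHC class II-high cells, 2.16 in monocytes, 2.82 in immature neutrophils and 2.98 (2.29 to 3.92) in mature neutrophils. For C5ar1 it was 1.35 (1.32 to 1.37) in macrophages, 1.38 in mature neutrophils, 1.68 in progenitors, between 1.81 and 1.84 in MHC class II-high cells, monocytes and immature neutrophils, and 2.39 (1.89 to 3.04) in stromal-gated cells. Macrophages with no immature neutrophil or progenitor marker UMI numbered 414 and 66. Their ratio was 1.13 (1.02 to 1.26) for C3ar1 and 1.34 (1.17 to 1.53) for C5ar1. In all macrophages 96.3% of tested genes had a lower ratio than C3ar1 and 96.4% a lower ratio than C5ar1, and no member reached 2-fold there (background 0.979% of genes higher). C3ar1 reached 2-fold in MHC class II-high cells (background 1.14%), monocytes (0.998%), immature neutrophils (2.37%) and mature neutrophils (3.97%), and no member did in progenitors (0.609%).

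Markers of macrophages moved with the receptors in 4 of the gates. In mature neutrophils the 8 macrophage markers summed to 941 CPM with THP and 547 CPM with vehicle, with 8 of 8 higher. They summed to 181 and 78.1 CPM in immature neutrophils (7 of 8 higher) and to 162 and 111 CPM in progenitors (8 of 8 higher). In the stromal gate, which had the highest C5ar1 ratio of the 7 gates, they summed to 848 and 692 CPM (5 of 8 higher). Their part in the receptor differences of these gates was not tested. In macrophages themselves the same markers summed to 2731 CPM with THP and 2973 CPM with vehicle, with 3 of 8 higher. They summed to 863 and 921 CPM in monocytes (2 of 8 higher) and to 925 and 912 CPM in MHC class II-high cells (3 of 8 higher). A gate that asked for 1 more marker gave C3ar1 ratios of 1.78 in mature neutrophils, 4.32 in immature neutrophils and 3.11 in progenitors, and a C5ar1 ratio of 2.72 in progenitors.

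**Figure D3:**
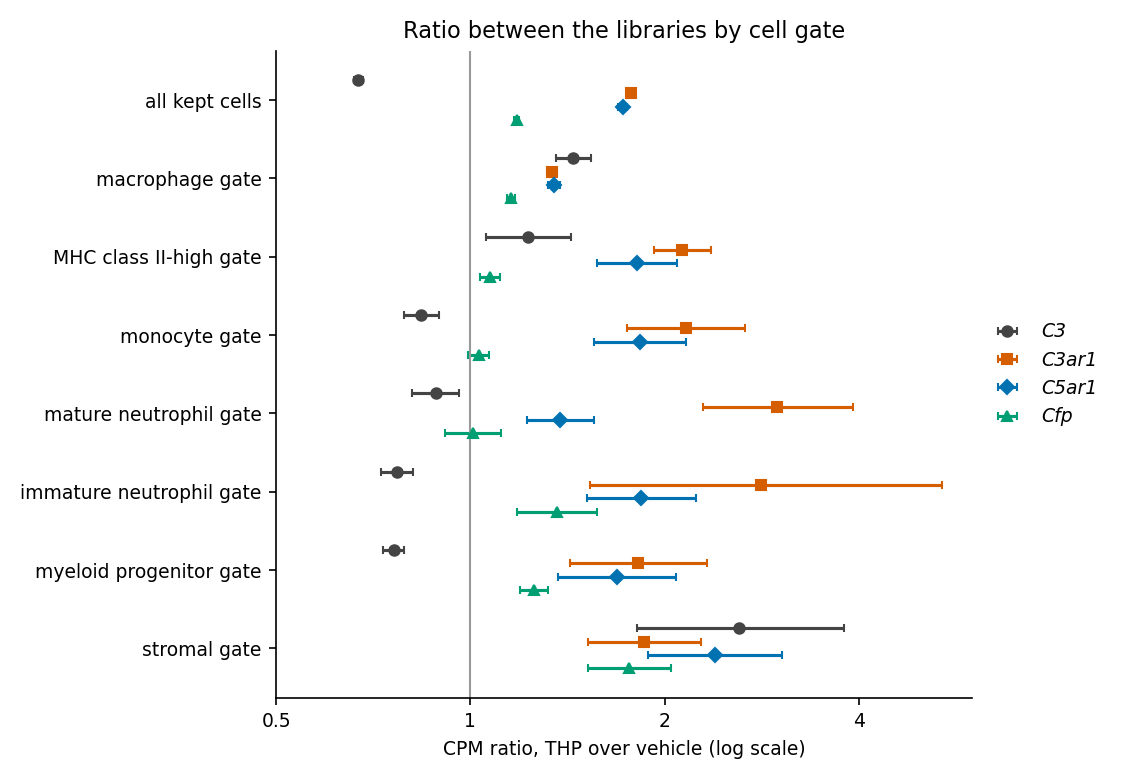
Ratio of CPM, THP over vehicle, for C3, C3ar1, C5ar1 and Cfp over all kept cells and in 7 gates, on a log axis with 95% counting intervals and a line at 1. C3ar1 (1.34 to 2.98) and C5ar1 (1.35 to 2.39) lie above 1 in all 7 gates, while C3 lies above 1 in 3 gates and below 1 in 4.

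The members were also read without a gate. Cells with at least 5000 UMIs were thinned to that depth and ordered by how many of the 8 macrophage markers they showed, and the members' levels were then taken at full depth. From 0 to 7 markers, C3ar1 went from 6.80 to 427 CPM with THP and from 4.16 to 302 CPM with vehicle. C5ar1 went from 21.7 to 300 CPM and from 13.8 to 215 CPM. Both were higher in the THP library at 8 of 8 marker counts, with C3ar1 ratios of 1.39 to 2.99 and C5ar1 ratios of 1.33 to 2.83.

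Along the same order C3 ran the other way from the receptors. It went from 283 to 40.5 CPM with THP and from 395 to 25.2 CPM with vehicle, so the libraries crossed. The ratio was 0.72 (0.69 to 0.74) in cells with 0 markers, 0.99 (0.93 to 1.05) at 4 markers and 1.61 (1.39 to 1.87) at 7 markers.

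**Figure D4:**
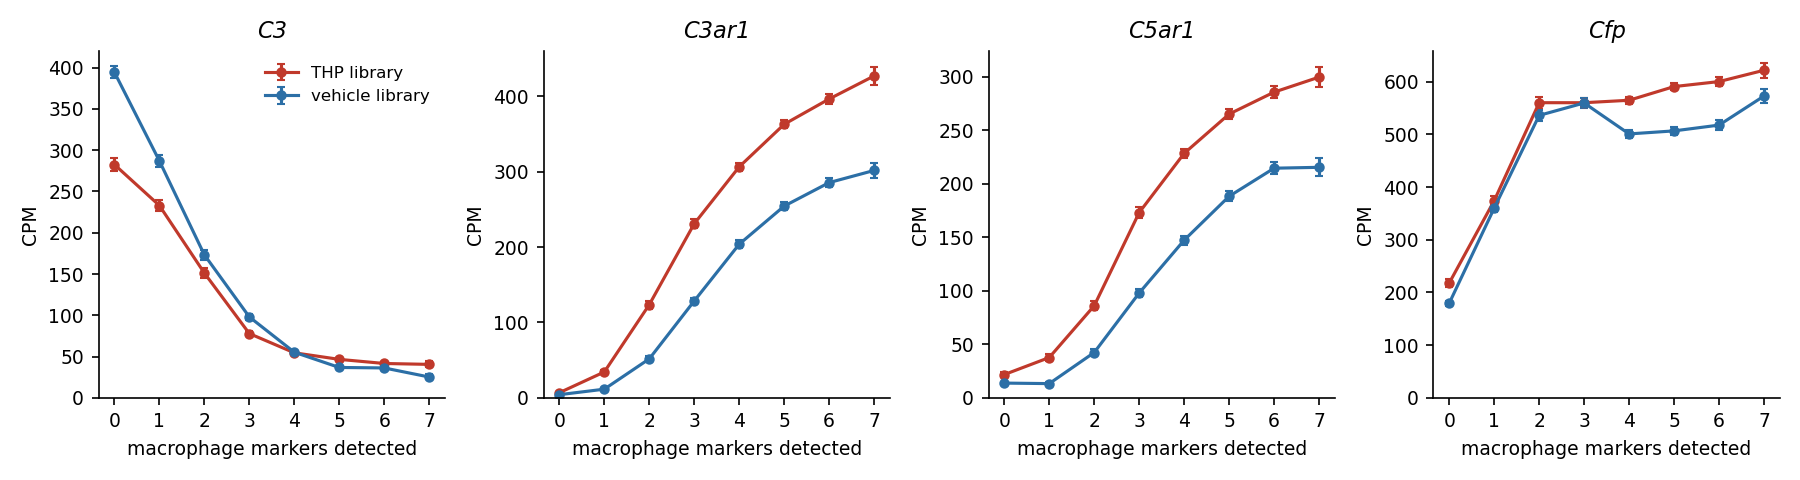
Level of C3, C3ar1, C5ar1 and Cfp in CPM against the number of macrophage markers a cell showed at 5000 UMIs, with THP in red, vehicle in blue and 95% counting intervals; the smallest group holds 424 cells. The receptors are higher in the THP library at every count shown, and the C3 lines cross at about 4 markers (54.6 and 55.3 CPM).

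More macrophages of the THP library showed a receptor UMI. At 5000 UMIs per cell C3ar1 was found in 81.5% of THP macrophages and 69.6% of vehicle macrophages, and C5ar1 in 71.4% and 60.0%. In progenitors at the same depth the shares were 2.85% and 2.26% for C3ar1, and 6.50% and 3.91% for C5ar1. Both receptors were found together in 58.8% of THP macrophages, beside 58.2% from multiplying the single shares. In vehicle macrophages these shares were 42.4% and 41.8%, so the receptors' capture was close to independent within the gate.

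Properdin is unusual among complement proteins in being made largely by leukocytes. Cfp stood at 716 and 667 CPM in MHC class II-high cells and at 709 and 688 CPM in monocytes, with overlapping intervals within each library. Macrophages held 590 CPM (585 to 594) with THP and 510 CPM (505 to 516) with vehicle. Mature neutrophils (285 and 282 CPM), progenitors (199 and 159 CPM), stromal-gated cells (190 and 108 CPM) and immature neutrophils (137 and 101 CPM) were lower.

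The Cfp difference between the libraries was small and depended on the processing. Its ratio had an interval above 1 in 5 of 7 gates, with 1.16 (1.14 to 1.17) in macrophages, and the intervals in monocytes (1.03, 0.99 to 1.07) and mature neutrophils (1.01, 0.91 to 1.12) included 1. With the length trend subtracted the ratio was 0.98 in macrophages and 0.88 in MHC class II-high cells, and the log2 ratio over all cells was 0.00. In macrophages with no immature neutrophil or progenitor marker UMI the ratio was 0.97 (0.90 to 1.06).

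Serping1, the serpin that inhibits C1r, C1s and the mannose-binding lectin proteases, was a stromal transcript here. The stromal gate held 97.2% of its UMIs with THP and 97.9% with vehicle, in 79 and 69 cells. It stood at 239 CPM (219 to 260) and 62.3 CPM (53.7 to 71.8) there, a ratio of 3.84 (3.24 to 4.56), and 99.3% of tested genes of this gate had a lower ratio. A Serping1 UMI was found in 69 of 79 THP stromal cells and 35 of 69 vehicle stromal cells, although the vehicle cells were deeper (median 39877 against 23986 UMIs). Outside the gate 15 UMIs were found among 12044 THP cells and 4 among 10909 vehicle cells.

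The Serping1 value leaned on few cells, and the gate itself differed between the libraries. A single THP cell gave 95 of 518 UMIs (18.3%), and a single vehicle cell gave 23 of 188. Without these 2 cells the levels were 198 and 55.1 CPM. The 6 stromal markers summed to 6151 CPM with THP and 15926 CPM with vehicle, with 5 of 6 lower, so Serping1 was higher where collagen and matrix markers were lower. Their part in the Serping1 difference was not tested.

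In the same cells C2 stood at 1.84 CPM (4 UMIs) with THP and 10.9 CPM (33 UMIs) with vehicle, a ratio of 0.17 (0.04 to 0.47). At 2-fold, 2.90% of the 8723 genes tested in the stromal gate were higher and 5.66% lower. Of the 6 members tested there, C3, C5ar1 and Serping1 were higher and C2 lower by that rule. In macrophages C2 was at 1.11 and 1.47 CPM, a ratio of 0.76 (0.57 to 1.00), and Cfb at 0.181 CPM (18 UMIs) and 0.120 CPM (8 UMIs), a difference not resolved at this depth (interval of the ratio 0.62 to 3.99).

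Several complement genes are known interferon targets, and a few macrophages carried an interferon-stimulated state, with at least 5 of 9 interferon markers. This state held 156 THP macrophages and 73 vehicle macrophages. C3 stood at 38.8 CPM in these cells and 30.9 CPM in the other macrophages of the THP library (ratio 1.25, 1.08 to 1.45), and at 33.4 and 21.3 CPM in the vehicle library (1.57, 1.22 to 2.00). C3ar1 was higher in the interferon-marked cells too, at 432 against 383 CPM in the THP library and 399 against 284 CPM in the vehicle library. C5ar1 was lower in them, at 236 against 283 CPM (0.83, 0.79 to 0.88) and 172 against 210 CPM (0.82, 0.74 to 0.91). Cfp stood at 551 against 592 CPM (0.93, 0.90 to 0.97) and 495 against 511 CPM (0.97, 0.91 to 1.03). The interferon-marked cells held only 2 and 2 UMIs of Cfb, 6 and 5 of C2, and 0 and 0 of Serping1. The interferon state could therefore not be read for these 3 genes. The interferon-marked cells were also deeper, with medians of 28823 against 21430 UMIs in the THP library and 26466 against 23148 UMIs in the vehicle library.

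The genes most like each member across 14 levels (7 gates in 2 libraries) were found by Pearson's r on log2 CPM + 1. These 14 points share 2 libraries and are given as a description. C3 was most like Hsd11b1 (0.98), the cortisone reductase, Trem3 (0.98) and Chil1 (0.98). C3ar1 was most like Mcoln2 (0.98), an endolysosomal channel, Tmem106a (0.97) and Ms4a7 (0.97). C5ar1 was most like Bri3, Ptprj (both 0.92) and Gabarap (0.91), and Cfp most like Ucp2 (0.97), Unc93b1 (0.96), which carries Toll-like receptors to endosomes, and Casp1 (0.95), the inflammasome protease. C2 was most like Alg14 (0.93), Asns (0.92) and Pck2 (0.92), and Serping1 most like the matrix-associated genes Igfbp7, Ctgf and Serpinh1 (0.98 to 1.00). The values of these 2 members rest on few counts. C2 had 0 UMIs in mature neutrophils of both libraries, and 4 and 7 in monocytes. Serping1 had 15 and 4 UMIs outside the stromal gate, so its r mostly reflects the stromal levels. Between members, C3 and C3ar1 ran in opposite directions (-0.79), and C3ar1 and C5ar1 in the same one (0.69).

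Among a wider list of 48 complement genes found in the files, 17 had at least 10 CPM in a library, of which 9 were higher and 8 lower in the THP library (12 and 5 under TMM scaling), beside 32.4% of all 8012 tested genes higher. Their median log2 ratio was 0.04, and below 0 with the length trend subtracted (-0.08), beside -0.18 for all tested genes. By the 2-fold rule, which 2.97% of all genes met as lower, 1 was lower, Fcnb, a ficolin of the lectin pathway stored in neutrophils, at 40.0 against 82.8 CPM. At 1.5-fold, against 2.33% of all genes higher and 17.3% lower, C3ar1, C5ar1 and Cd55 (32.9 against 21.3 CPM), a membrane inhibitor of the convertases, were higher. Only Fcnb was lower among these 17 by that rule. In the macrophage gate Cd55 stood at 49.0 against 44.7 CPM, a ratio of 1.10 (1.05 to 1.15). Fcnb stood at only 0.854 and 1.46 CPM there. The part of the mix of cells in the Cd55 and Fcnb differences was not tested.

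In macrophages the other genes with at least 10 CPM that were listed here under receptors were lower in the THP library. Of these, Cr1l was higher under TMM scaling. Of 16 list genes with at least 10 CPM there, 7 were higher and 9 lower (11 and 5 under TMM scaling), beside 33.6% of all genes tested in the gate higher. Their median log2 ratio was -0.06 beside -0.16 for all genes. By the 2-fold rule Vsig4 (22.7 against 47.1 CPM), the C3b and iC3b receptor of resident macrophages, was lower, against a background of 2.29% of genes. The integrin subunits of complement receptors 3 and 4 were all lower, with log2 ratios of -0.42 for Itgam, -0.70 for Itgax and -0.37 for Itgb2. The 3 C1q genes, which start the classical pathway, had log2 ratios between -0.19 and 0.13 in macrophages and between 0.30 and 0.57 over all cells. Of the 7 genes of the terminal pathway none reached 10 CPM.

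**Figure D5:**
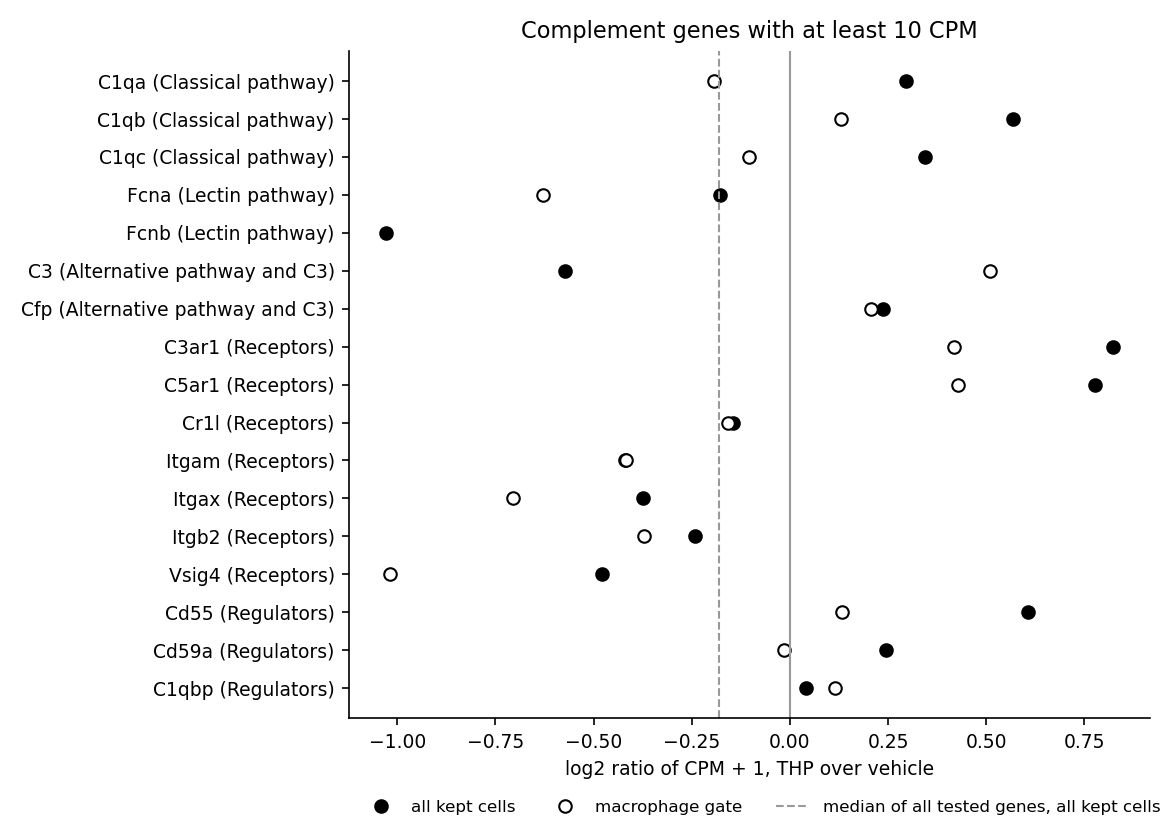
Log2 ratio of CPM + 1, THP over vehicle, of 17 complement genes with at least 10 CPM, ordered by role, over all kept cells (filled) and in the macrophage gate (open, where at least 10 CPM). The dashed line is the median of all tested genes over all kept cells (-0.18); C3 lies at -0.57 over all cells and 0.51 in macrophages, and Vsig4 is the lowest plotted in macrophages (-1.02).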

How the data were processed

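The authors deposited whole-number UMI counts per gene and barcode, written by software version 3.1.0 per the file headers; Cell Ranger, STAR and mm10 are named in the submitters' processing notes. Reads were not reprocessed. Both libraries list the same 31053 genes. Barcodes with at least 1000 UMIs, at least 500 genes and at most 10% mitochondrial UMIs were kept (224825484 and 207662132 UMIs). Doublets were not removed. UMIs were summed per library and gate and divided by their total (CPM), with exact Poisson intervals, exact binomial intervals for shares and conditional exact intervals for ratios. Log2 ratios use CPM + 1, which understates changes of low genes. TMM and RLE factors came from edgeR 4.0.16. The ratio code was tested on simulated data.

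Gate markers, the members and the wider list were chosen with earlier results of these data known. The gate thresholds, and the priority of the non-myeloid gates over the myeloid ones, were set after seeing the files. The MHC class II-high gate was set up as a dendritic cell gate, but Flt3, Cd209a and Zbtb46 were near 0. A gene of the wider list is not reported here and is left out of that list's counts and medians. Genes were named by a rule: the 7 members, list genes with at least 10 CPM (at most 20 by size of ratio), and the 3 genes with the highest Pearson r to each member.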

Additional observations from a re-analysis of the deposited data

Results flagged for a closer look

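The C3 ratio, THP over vehicle, pointed in opposite directions in different gates. It was 1.44 in macrophages, 1.23 in MHC class II-high cells and 2.61 in stromal-gated cells, against 0.84 in monocytes, 0.88 in mature neutrophils, 0.77 in immature neutrophils and 0.76 in myeloid progenitors. The difference between the gates was not tested.

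Barcodes removed by the cell filter, 1070 with THP and 606 with vehicle, also carried these transcripts. C3ar1 stood at 341 CPM in those of the THP library and 135 CPM in those of the vehicle library, C5ar1 at 229 and 94.4 CPM, and Cfp at 636 and 496 CPM.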

How the results depend on the processing

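With 1 library per group no result has a replicate check, and depth limits Cfb and C2 most. Over all kept cells the log2 ratios of C3, C3ar1, C5ar1 and Cfp were -0.29, 1.11, 1.06 and 0.52 under TMM scaling, -0.30, 1.10, 1.06 and 0.52 under RLE scaling, and -0.35, 0.93, 0.65 and 0.00058 with the length trend subtracted. They were -0.51, 0.91, 0.73 and 0.26 with equal weight per cell and -0.17, 0.51, 0.50 and 0.17 with the same mix of gated cells. Without the top 5% of cells by UMIs, C3, C3ar1 and C5ar1 were at -0.61, 0.86 and 0.82. The median of the wider list, 0.04, was 0.32 under TMM and RLE scaling, 0.040 with a pseudocount of 0.1, 0.037 with all barcodes, 0.038 without the top cells and 0.042 without stromal-gated cells. It changed sign with the length trend subtracted (-0.082), equal weight per cell (-0.020) and the same mix (-0.025). The 2-fold rule gave 73 genes higher, 238 lower and 0 members. TMM and RLE scaling each gave 138 higher, 69 lower and 2 members, 1.5-fold gave 187, 1387 and 2, and the length trend left 129 lower.

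In macrophages the log2 ratio of Cfp was -0.023 (ratio 0.98) with the length trend subtracted. Its ratio was 0.97 in macrophages with no immature neutrophil or progenitor marker UMI. In MHC class II-high cells the Cfp ratio was 0.88 with the length trend subtracted, and in mature neutrophils the C3 ratio was 1.11. The list median in macrophages, -0.06, was 0.19 under TMM and RLE scaling and 0.021 under the looser gate. The cause of these changes was not tested. The stricter gate was not run for MHC class II-high cells, of which too few remained. Ratios per gate under other gates and scalings were added after seeing the data. No paired analysis was possible because each group has 1 library.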

Other observations

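Cells that met several myeloid gates, 2403 with THP and 2985 with vehicle, had C3 at 124 and 165 CPM, C3ar1 at 226 and 117 CPM, C5ar1 at 175 and 98.3 CPM and Cfp at 523 and 445 CPM. Cells that met no gate, 2235 and 1306, had C3 at 116 and 155 CPM, C3ar1 at 215 and 136 CPM, C5ar1 at 154 and 91.4 CPM and Cfp at 487 and 447 CPM. The directions were those seen over all cells.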
